A study of Mus musculus with 9 samples.

Results

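Genes of oligodendrocytes and of myelin were followed in the hippocampus of mice after ligation of a spinal nerve and after cannabidiol. The set was chosen by gene symbol: 40 named genes out of the 57010 genes in the deposited table, covering precursor cells, differentiating cells and mature myelinating cells. All 40 had 1 entry each, all 40 passed the filter on low counts, and 17967 genes did in all. Messenger RNA was sequenced in 9 libraries of hippocampus from C57BL/6J mice, 3 for each of 3 groups. In the Sham group the L5 spinal nerve was located but not tied, and solvent was given afterwards. In the SNL group a spinal nerve was ligated, an operation that leaves lasting nerve pain in rodents, and solvent was given as well. In the CBD group the ligation was followed by cannabidiol, a compound of the cannabis plant, injected into the peritoneum (5 mg/kg, 15 days). No group received cannabidiol without ligation, so the CBD group carries both interventions. The labels give neither age nor sex. They do not tie libraries to animals, so a p-value here measures spread between samples that may be technical.

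Oligodendrocytes wrap axons of the central nervous system in myelin, a stack of membrane that speeds conduction and feeds the axon. They arise from precursor cells that bear the receptor Pdgfra and the proteoglycan Cspg4 (NG2), pass through a brief committed stage marked by Gpr17, Bcas1 and Enpp6, and end as cells that make large amounts of Mbp and Mobp. In the hippocampus, myelinated fibres are found in the alveus and fimbria and among the layers, while precursors are spread through the tissue. In bulk RNA, fewer oligodendrocytes and less myelin RNA per cell cannot be told apart.

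Library totals of expected counts ran from 16972620 to 20470546, no 2 libraries of a group agreed within sampling noise (chi-square per gene 6.44 to 43.1), and 0 of 17967 genes passed an adjusted p of 0.05 in any of the 3 comparisons by edgeR's quasi-likelihood test with Benjamini-Hochberg adjustment. At an unadjusted p under 0.05 there were 2478 genes in SNL against Sham, 2462 in CBD against SNL and 2925 in CBD against Sham. Libraries also differed in RNA from outside the hippocampus. Pmch, a neuropeptide gene of the hypothalamus, stood out in 3 libraries, SNL 1 with 200.4 CPM (counts of the gene scaled to a common library size), CBD 1 with 146 and SNL 2 with 43.9, while the other 6 held 0.797 CPM or less. Summed over 13 markers of thalamus and habenula, the level was 820 to 1094 CPM in Sham, 1157 to 2879 in SNL and 1089 to 1458 in CBD, with SNL 2 the highest, and none of the 13 was at 0 in any library.

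Levels in bulk tissue show that the genes of the set were detected, but not which cells made them. The lowest value of any member was 3.48 CPM, that of C1ql1 in CBD 3, so all members were detected in all 9 libraries. The 40 genes together took between 0.943% (CBD 2) and 1.67% (SNL 2) of the tested counts. Pmp2, a protein of the myelin of peripheral nerve, was at 0.159 CPM or less in all 9 libraries. All 7 Schwann cell markers summed to 96.6 to 107 CPM, with overlap of the groups. Per kilobase of transcript and averaged over the 9 libraries, Mobp and Mbp were the highest, at 3650 and 2530 CPM per kb of the gene's median coding transcript, followed by Trf at 691. With the longest transcript as the length, Mbp came before Mobp. On the scale of the median transcript the lowest members were C1ql1, Neu4 and Cspg4, at 4.24, 4.21 and 3.78 CPM per kb.

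The myelin genes moved through the 9 libraries largely as a block. SNL 2 was the highest of the 9 libraries for 30 of the 40 members, against 12.9% of all genes tested. Within the Sham group, Sham 3 was the highest of 3 for 37 of 40 members (34.2% of all genes). Within the CBD group, CBD 1 was the highest for 30 of 40 (40.8% of all genes). By group mean, SNL was the highest of the 3 groups for 35 of 40 members, 31 of the 32 mature genes among them, where 33.1% of all genes had their highest mean in SNL. Summed over the 32 mature members, the level was 9702, 9487 and 12510 CPM in Sham 1, 2 and 3, 13710, 15960 and 11450 in SNL 1, 2 and 3, and 10270, 8959 and 9933 in CBD 1, 2 and 3. Sham 3 thus lay above SNL 3, and all 3 CBD libraries lay below all 3 SNL libraries. The sum of the thalamus and habenula markers was 1007, 820 and 1094 CPM in Sham 1, 2 and 3, 1377, 2879 and 1157 in SNL 1, 2 and 3, and 1440, 1089 and 1458 in CBD 1, 2 and 3. SNL 2 was the highest of the 9 in both sums, the order of libraries was the same in both within Sham and within SNL, and CBD 2 was the lowest CBD library in both. The part that neighbouring tissue has in the mature sums was not tested.

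**Figure D1:**
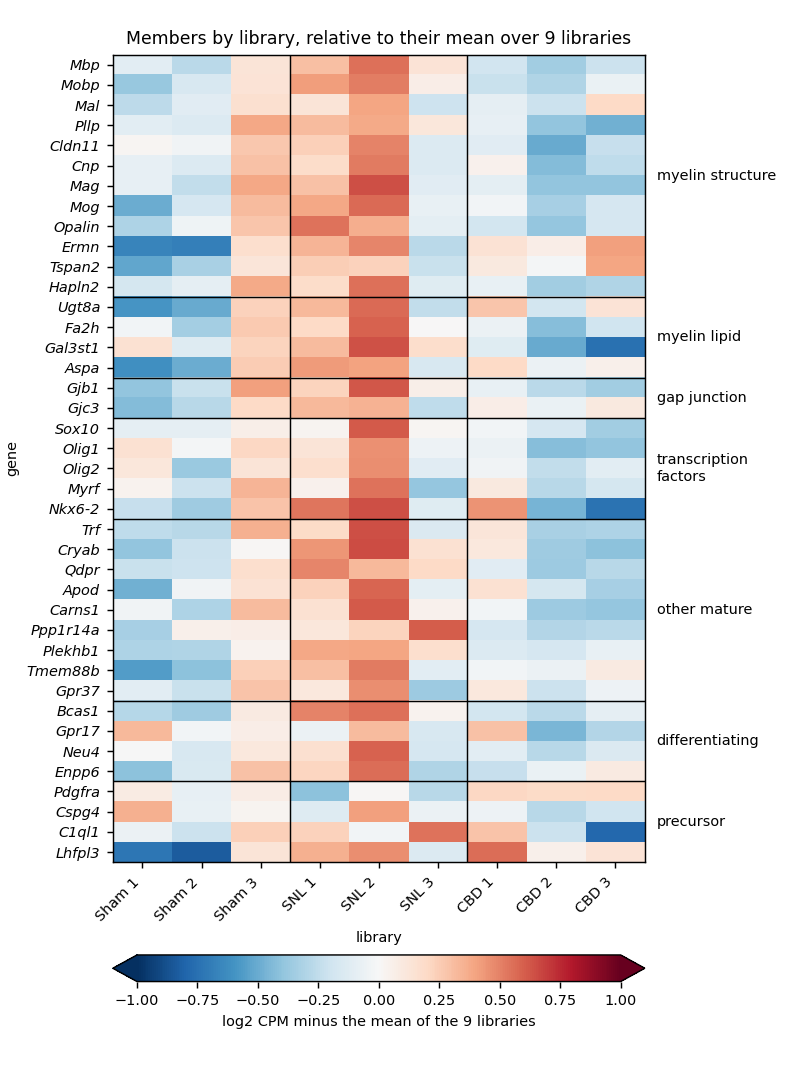
Each cell is the log2 CPM (prior count 2) of a member in a library minus that gene's mean over the 9 libraries, with genes grouped by role and libraries by group; red is above and blue below the mean, and the colour scale ends at 1 in either direction. The column of SNL 2 is red through nearly all mature genes, Sham 3 is redder than Sham 1 and Sham 2, and Pdgfra runs against the rest with its highest values in CBD.

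Among proteins of the myelin sheath, Mbp, the myelin basic protein that holds the cytoplasmic faces of the membrane together (ENSMUSG00000041607), stood at 4475, 3986 and 5263 CPM in Sham 1, 2 and 3, 5909, 7036 and 5295 in SNL 1, 2 and 3, and 4215, 3778 and 4146 in CBD 1, 2 and 3. Every SNL library lay above every Sham and every CBD library, though SNL 3 exceeded Sham 3 by little. The log2 fold change was 0.41 (SE 0.14, adjusted p 0.276) in SNL against Sham, -0.59 (SE 0.14, adjusted p 0.306) in CBD against SNL and -0.18 (SE 0.14, adjusted p 0.561) in CBD against Sham. Mobp, an abundant structural protein of the same cytoplasmic space (ENSMUSG00000032517), stood at 1368, 1594 and 1949 CPM in Sham 1, 2 and 3, 2375, 2532 and 1857 in SNL 1, 2 and 3, and 1524, 1447 and 1693 in CBD 1, 2 and 3. Its SNL and Sham libraries overlapped, since Sham 3 exceeded SNL 3, while all CBD libraries lay below all SNL libraries (-0.54 (SE 0.16), adjusted p 0.306). Mog, a glycoprotein on the outer face of the sheath, stood at 71.4, 90.03 and 126 CPM in Sham 1, 2 and 3, 132, 149 and 95.9 in SNL 1, 2 and 3, and 99, 80.3 and 90.1 in CBD 1, 2 and 3. Groups of Mog overlapped in each comparison. Mag, an adhesion molecule of the innermost membrane next to the axon, stood at 302, 269.5 and 419 CPM in Sham 1, 2 and 3, 391, 499 and 296 in SNL 1, 2 and 3, and 299.7, 244 and 243 in CBD 1, 2 and 3. Cnp, a phosphodiesterase of non-compact myelin, stood at 468, 451 and 608 CPM in Sham 1, 2 and 3, 564, 709 and 451 in SNL 1, 2 and 3, and 510.3, 367 and 416 in CBD 1, 2 and 3. For both, Sham 3 was above SNL 1 and SNL 3. Cldn11, which forms the tight junctions between myelin wraps, stood at 219, 211 and 260.5 CPM in Sham 1, 2 and 3, 256, 304 and 197 in SNL 1, 2 and 3, and 200.2, 152 and 184 in CBD 1, 2 and 3, and its CBD libraries lay below all Sham libraries. Opalin, a membrane protein found in mature oligodendrocytes, stood at 30.9, 37.1 and 46.5 CPM in Sham 1, 2 and 3, 55.9, 49.2 and 35.8 in SNL 1, 2 and 3, and 33.7, 29.2 and 34 in CBD 1, 2 and 3. All CBD values of Opalin lay below all SNL values (-0.54 (SE 0.18, adjusted p 0.311)).

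A pair of sheath genes did not follow Mbp in the CBD group. Ermn, a cytoskeletal protein of late oligodendrocytes (ENSMUSG00000026830), stood at 68.3, 67.3 and 121 CPM in Sham 1, 2 and 3, 137, 152 and 89.6 in SNL 1, 2 and 3, and 119, 113 and 144 in CBD 1, 2 and 3. Its level in CBD was close to that in SNL (-0.01 (SE 0.25)) and above that of Sham 1 and Sham 2, with Sham 3 in the range of CBD (0.55 (SE 0.25, adjusted p 0.312) in CBD against Sham). Tspan2, a tetraspanin of the sheath, stood at 107, 123 and 167 CPM in Sham 1, 2 and 3, 182, 179.9 and 131 in SNL 1, 2 and 3, and 164, 151 and 202 in CBD 1, 2 and 3, with CBD 3 the highest library of all. The transcripts of these genes are poor in G and C, a property taken up again below with the comparison of CBD and Sham. Mal, Pllp and Hapln2 complete the group. Pllp, a proteolipid of the sheath, stood at 60.02, 59 and 84.8 CPM in Sham 1, 2 and 3, 80.6, 84.1 and 70.1 in SNL 1, 2 and 3, and 61.1, 49.3 and 46.5 in CBD 1, 2 and 3, with CBD below SNL without overlap (-0.58 (SE 0.16, adjusted p 0.306)). Mal, another proteolipid, lay between 302 and 475 CPM and Hapln2, a link protein at nodes of Ranvier, between 35.5 and 66.3, and the groups of both overlapped in each comparison.

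**Figure D2:**
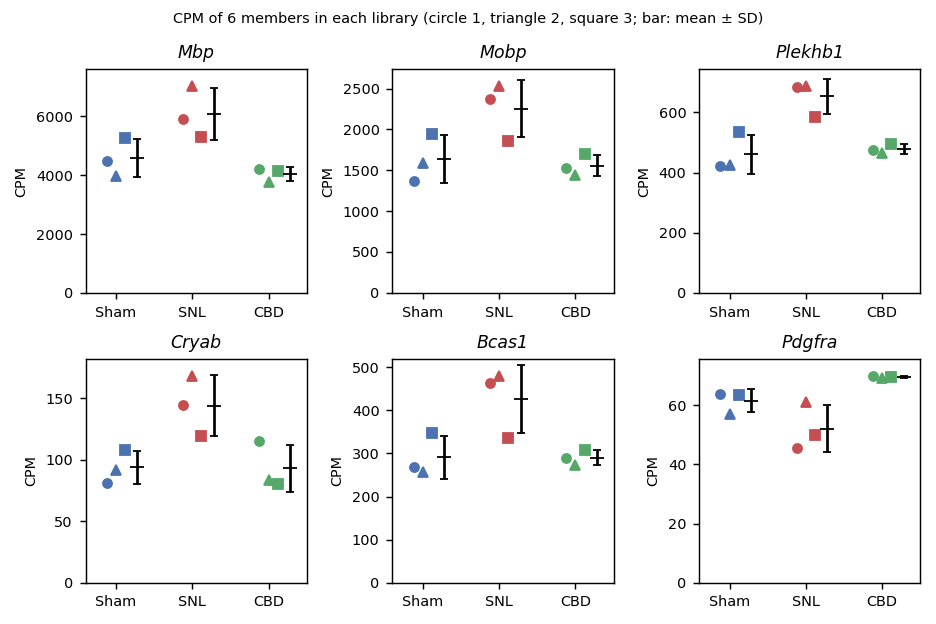
CPM of 6 members in each library, with 1 panel per gene, the groups along the horizontal axis, symbols for replicate 1 (circle), 2 (triangle) and 3 (square), and mean ± SD of the 3 libraries as a black bar. Mbp, Plekhb1 and Cryab have all SNL libraries above all Sham libraries, and Pdgfra has its 3 CBD libraries, at 69.2 to 69.95 CPM, above all others.

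All 4 enzymes of myelin lipids had positive fold changes in SNL against Sham and negative ones in CBD against SNL. Ugt8a, which makes galactosylceramide, stood at 52.1, 55.3 and 91.8 CPM in Sham 1, 2 and 3, 98, 116 and 66 in SNL 1, 2 and 3, and 94.9, 68.9 and 86 in CBD 1, 2 and 3, with Sham 3 close to SNL 1. Fa2h, the hydroxylase of myelin fatty acids, stood at 58.5, 47 and 71.6 CPM in Sham 1, 2 and 3, 68.4, 89.8 and 59.6 in SNL 1, 2 and 3, and 57.2, 44.3 and 51.9 in CBD 1, 2 and 3, and all its CBD values lay below all its SNL values. Gal3st1, which adds sulfate to galactosylceramide to make sulfatide, stood at 13.8, 11.3 and 14.5 CPM in Sham 1, 2 and 3, 15.5, 19.3 and 14 in SNL 1, 2 and 3, and 11.4, 8.72 and 7.36 in CBD 1, 2 and 3. Its CBD libraries lay below all SNL libraries, and its fold change was the largest of the 40 in that comparison (-0.83 (SE 0.19, adjusted p 0.306)). Aspa, which breaks down N-acetylaspartate and is mutated in Canavan disease in humans, stood at 17.7, 19.2 and 32.4 CPM in Sham 1, 2 and 3, 36.5, 36 and 24.3 in SNL 1, 2 and 3, and 31.2, 26.1 and 28.1 in CBD 1, 2 and 3. Its CBD values lay among those of SNL. Gjb1 (connexin 32), which forms channels within the myelin wraps, stood at 16.9, 19.1 and 29.7 CPM in Sham 1, 2 and 3, 26, 34.3 and 23.2 in SNL 1, 2 and 3, and 21.1, 18.5 and 17.5 in CBD 1, 2 and 3. Gjc3, another connexin of oligodendrocytes, stood at 72.5, 80.5 and 112 CPM in Sham 1, 2 and 3, 122, 124 and 82.1 in SNL 1, 2 and 3, and 102, 93.3 and 105 in CBD 1, 2 and 3. CBD and SNL did not overlap for Gjb1 and did for Gjc3.

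The 5 transcription factors of the lineage had a median log2 fold change of 0.22 in SNL against Sham, where the 12 sheath genes had 0.28, a difference that was not tested. Sox10, which acts through all stages, stood at 59.8, 59.8 and 66.3 CPM in Sham 1, 2 and 3, 64.8, 97.1 and 64.6 in SNL 1, 2 and 3, and 62.5, 56.6 and 49.98 in CBD 1, 2 and 3. SNL 2 stood far above the others for this gene, and all CBD values lay below all SNL values. Olig1, a helix-loop-helix factor of the lineage, stood at 147, 131 and 153 CPM in Sham 1, 2 and 3, 145, 182 and 128 in SNL 1, 2 and 3, and 128, 98.9 and 101 in CBD 1, 2 and 3, with the CBD libraries below all others (-0.48 (SE 0.15, adjusted p 0.306) against SNL and -0.40 (SE 0.15, adjusted p 0.249) against Sham). Olig2, its close relative, which specifies the lineage, stood at 47.4, 33.8 and 48.1 CPM in Sham 1, 2 and 3, 49.3, 60.7 and 40.5 in SNL 1, 2 and 3, and 42.8, 37 and 40.9 in CBD 1, 2 and 3, with overlap in each comparison. Myrf, the factor that turns on and maintains myelin genes in the adult, stood at 105, 88.2 and 129.7 CPM in Sham 1, 2 and 3, 106, 149 and 78.4 in SNL 1, 2 and 3, and 110, 84.5 and 91 in CBD 1, 2 and 3. SNL 3 was the lowest of all 9 libraries for Myrf, and the log2 fold change of SNL against Sham was 0.04 (SE 0.22), the smallest of the 32 mature members. The fifth, Nkx6-2, a homeobox factor, lay between 9.56 and 25.1 CPM. None of the 5 reached an unadjusted p under 0.05 in SNL against Sham (0 of 5, against 5.83% of all genes higher and 7.96% lower), and in CBD against SNL 2 did, Sox10 and Olig1, both lower (7.2% of all genes).

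Among the 9 other genes of mature oligodendrocytes were the smallest p-values in SNL against Sham (Plekhb1) and in CBD against SNL (Qdpr). Plekhb1, a membrane protein with a pleckstrin homology domain (ENSMUSG00000030701), stood at 423, 425 and 535 CPM in Sham 1, 2 and 3, 685, 688 and 586 in SNL 1, 2 and 3, and 476, 464 and 496 in CBD 1, 2 and 3. SNL lay above both other groups without overlap, at 0.50 (SE 0.12, adjusted p 0.22) against Sham and -0.45 (SE 0.12, adjusted p 0.306) for CBD against SNL. Cryab, the small heat shock protein alpha B crystallin (ENSMUSG00000032060), stood at 81.5, 92.2 and 108 CPM in Sham 1, 2 and 3, 145, 168 and 119 in SNL 1, 2 and 3, and 115, 83.7 and 80.3 in CBD 1, 2 and 3, again with every SNL library above the rest. Qdpr, which regenerates the cofactor tetrahydrobiopterin (ENSMUSG00000015806), stood at 234, 237 and 308 CPM in Sham 1, 2 and 3, 385, 342 and 314 in SNL 1, 2 and 3, and 253, 213 and 226 in CBD 1, 2 and 3. Its SNL libraries were higher than all Sham libraries (0.42 (SE 0.14, adjusted p 0.261)) and all CBD libraries (-0.59 (SE 0.14, adjusted p 0.306)). Trf, the iron carrier transferrin, stood at 458, 452 and 698 CPM in Sham 1, 2 and 3, 626, 854 and 495 in SNL 1, 2 and 3, and 593, 438 and 442 in CBD 1, 2 and 3. Apod, a lipocalin, stood at 184, 252 and 285 CPM in Sham 1, 2 and 3, 303, 386 and 241 in SNL 1, 2 and 3, and 286, 229 and 205 in CBD 1, 2 and 3. For Trf and Apod alike Sham 3 lay above SNL 3, and the groups overlapped. The remaining genes of this kind were lower in level, with Carns1, which makes carnosine, at 12.1 to 24.4 CPM, Ppp1r14a, an inhibitor of myosin phosphatase, at 12.1 to 23.4, Tmem88b at 70.8 to 149 and Gpr37, a G protein-coupled receptor, at 90.5 to 160.2. Of these, Ppp1r14a had all SNL values above all Sham and all CBD values, with SNL 3 the highest of the 9.

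The 4 genes of the differentiating stage had a median log2 fold change of 0.25 in SNL against Sham, where 3 of the 4 were higher, and of -0.33 in CBD against SNL, where all 4 were lower. Bcas1, which marks early myelinating cells (ENSMUSG00000013523), stood at 269, 256 and 348 CPM in Sham 1, 2 and 3, 463, 479.9 and 336 in SNL 1, 2 and 3, and 289, 273 and 309 in CBD 1, 2 and 3. It followed Mbp, with 0.55 (SE 0.16, adjusted p 0.234) in SNL against Sham and -0.56 (SE 0.16, adjusted p 0.306) in CBD against SNL. Gpr17, a receptor of the committed stage, stood at 73.9, 58 and 62 CPM in Sham 1, 2 and 3, 56.8, 73.6 and 53 in SNL 1, 2 and 3, and 72.4, 43 and 48.1 in CBD 1, 2 and 3. Its highest values were in Sham 1, SNL 2 and CBD 1, a library of each group, and no comparison separated its groups. Enpp6, a choline phosphodiesterase of newly forming oligodendrocytes, stood at 10.3, 12.3 and 16.8 CPM in Sham 1, 2 and 3, 15.9, 20.2 and 11.1 in SNL 1, 2 and 3, and 11.7, 13.1 and 14.6 in CBD 1, 2 and 3, and Neu4, a sialidase, was at 10.6 to 19.5 CPM. Groups of Enpp6 and Neu4 overlapped in all 3 comparisons.

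Among precursor genes, Pdgfra ran opposite to myelin. Pdgfra, the receptor through which platelet-derived growth factor drives precursor division (ENSMUSG00000029231), stood at 64, 57 and 63.6 CPM in Sham 1, 2 and 3, 45.5, 61 and 49.9 in SNL 1, 2 and 3, and 69.95, 69.2 and 69.4 in CBD 1, 2 and 3. All CBD libraries lay above all SNL and all Sham libraries, with a spread of under 1 CPM among them, and SNL 2 lay within the range of Sham. The log2 fold change was -0.24 (SE 0.12, adjusted p 0.392) in SNL against Sham, 0.41 (SE 0.12, adjusted p 0.306) in CBD against SNL and 0.18 (SE 0.12, adjusted p 0.467) in CBD against Sham. Cspg4, the proteoglycan NG2 on the same cells and on pericytes, stood at 38.7, 28.8 and 30.9 CPM in Sham 1, 2 and 3, 27.7, 40.3 and 29.2 in SNL 1, 2 and 3, and 29.2, 24.9 and 26.4 in CBD 1, 2 and 3 and did not share this pattern. C1ql1, a secreted complement-like protein, stood at 5.81, 5.21 and 7.19 CPM in Sham 1, 2 and 3, 7.12, 5.94 and 8.87 in SNL 1, 2 and 3, and 7.42, 5.21 and 3.48 in CBD 1, 2 and 3, with the highest value in SNL 3 and the lowest in CBD 3. Lhfpl3, a tetraspan protein enriched in precursors, stood at 21.4, 19.8 and 38.6 CPM in Sham 1, 2 and 3, 45.2, 48.9 and 32.1 in SNL 1, 2 and 3, and 52.1, 36.5 and 38.8 in CBD 1, 2 and 3. Here Sham 1 and Sham 2 were the lowest 2 of the 9, and Sham 3 lay within SNL and CBD. Pdgfra is also made by fibroblasts of brain vessels and meninges. The summed level of 7 markers of those cells, all of them detected in all libraries, ran from 127 to 190.4 CPM in Sham, from 112 to 228 in SNL and from 137 to 238 in CBD, with overlap between all groups, and the part of those cells in the Pdgfra values was not tested.

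The mature sum was set against the sums of the earlier stages. Divided by the differentiating sum it was 26.5 to 28.4 in Sham, 24.9 to 27.8 in SNL and 25.9 to 26.7 in CBD, with overlap of all groups. For the precursor sum the ratio of summed CPM was 74.7, 85.6 and 89.1 in Sham 1, 2 and 3, 109, 102 and 95.4 in SNL 1, 2 and 3, and 64.8, 65.9 and 71.9 in CBD 1, 2 and 3. Sham, SNL and CBD did not overlap in this second ratio. Both were chosen after the values were seen and are given with no test. Mbp and Mobp are the most abundant genes above the line and Pdgfra is the most abundant below it. After removal of trends with transcript GC content and length in each library, the ratio was 75.9 to 89.5 in Sham, 87 to 106 in SNL and 65.9 to 79.8 in CBD, so that SNL 3 then lay inside the range of Sham and CBD 3 did as well, while SNL and CBD stayed apart.

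**Figure D3:**
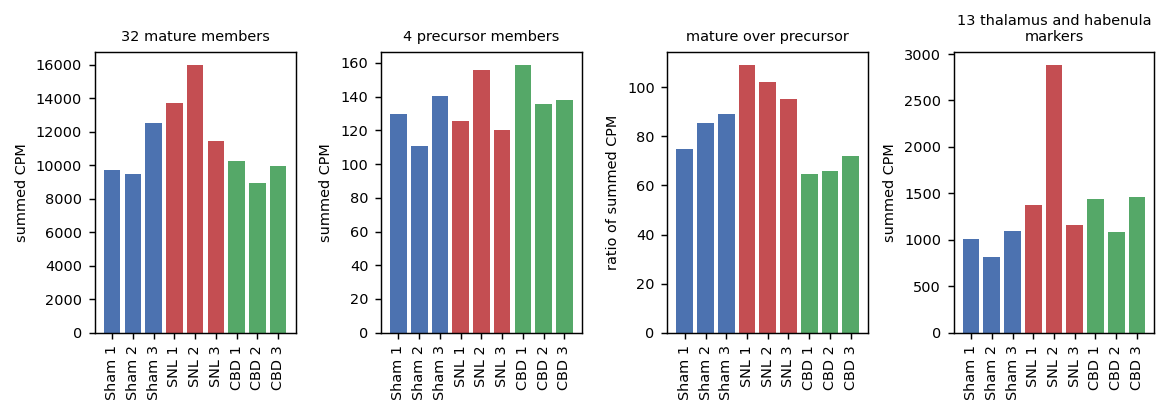
Bars give, for each library, the summed CPM of the 32 mature members, the summed CPM of the 4 precursor members, the ratio of the first to the second, and the summed CPM of 13 markers of thalamus and habenula, coloured by group (blue Sham, red SNL, green CBD). The ratio is highest in the 3 SNL libraries, at 95.4 to 109, and lowest in the 3 CBD libraries, at 64.8 to 71.9, while SNL 2 stands out at 2879 CPM in the marker panel.

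The comparison of SNL with Sham asks what ligation changed. Myelin genes were on the whole higher in SNL, but no gene passed the test after adjustment over all genes. Of 40 members 37 had a positive log2 fold change (51.6% of all genes did) and 3 a negative one (48.4%), with all 32 mature genes positive, with a median of 0.31 for the mature genes and 0.25 for the 8 precursor and differentiating genes against 0.01 for all genes tested. Called at an adjusted p under 0.05 were 0 of 40 members (0% of all genes), and the smallest adjusted p among them was 0.22, that of Plekhb1. At an unadjusted p under 0.05, 9 members were higher (5.83% of all genes) and 0 were lower (7.96%). The 9 were Mbp, Mobp, Ermn, Cryab, Qdpr, Ppp1r14a, Plekhb1, Bcas1 and Lhfpl3. Every SNL library lay above every Sham library for 5 members, Mbp, Cryab, Qdpr, Ppp1r14a and Plekhb1 (7.94% of all genes), and below for 0 (9.81%). The DESeq2 Wald test called 3 of the 40, Plekhb1, Cryab and Bcas1, all higher, and 2.58% of the genes to which it gave an adjusted p, while limma voom called 0 of 40 (0.00557% of all genes).

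These counts varied with single libraries. The 9 members at an unadjusted p under 0.05 became 21 without Sham 3, 18 without SNL 3, 5 without SNL 2 and 5 without Sham 1. Over all genes, in either direction, 2478 became 3516, 2583, 2346 and 1527 in the same order. The count over all genes thus moved widely without Sham 3 and without Sham 1, and little without SNL 3 and without SNL 2. The mature median ran from 0.17 without SNL 2 to 0.49 without Sham 3. Without SNL 1, SNL 2 and CBD 1, the 3 libraries with Pmch, SNL 3 was the only SNL library, its spread was assumed to be that of the other groups, the mature median was 0.01 and 20 of 40 members were higher. At an unadjusted p under 0.05, 1 member was then higher (3.45% of all genes) and 0 were lower (3.42%). In this comparison 12 of the 13 thalamus and habenula markers were also higher at an unadjusted p under 0.05 (5.83% of all genes), with a median log2 fold change of 1.02, and what part the share of such tissue has in the myelin values was not tested.

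The comparison of CBD with SNL addresses the effect of cannabidiol after ligation, and it held the widest differences of the set. Members with a negative log2 fold change numbered 37 of 40 (50.1% of all genes), and the median was -0.47 for the 32 mature genes and -0.27 for the other 8, against -0.001 for all genes. None was called after adjustment, 0 of 40 members and 0% of all genes, and 0.306 was the smallest adjusted p, shared by several members. At an unadjusted p under 0.05, 19 members were lower in CBD (7.2% of all genes) and 1, Pdgfra, was higher (6.5%). Lower by this measure were 8 of the 12 sheath genes, 2 of the 4 lipid enzymes, Gjb1, 2 of the 5 transcription factors, 5 of the 9 other mature genes and Bcas1. For 15 members every CBD library lay below every SNL library (10.1% of all genes), and for 1, Pdgfra, above (9.18%). The smallest p-values among lower members were those of Qdpr, Gal3st1 and Mbp, and among higher members those of Pdgfra, Tspan2 and Lhfpl3, of which the last pair had fold changes near 0 (0.07 (SE 0.19) and 0.01 (SE 0.26)).

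Other tests gave calls here that edgeR did not. The DESeq2 Wald test called 5 members, Mbp, Gal3st1, Cryab, Qdpr and Plekhb1, all lower in CBD, and 1.58% of all genes with an adjusted p. With limma voom and sample weights 13 members passed (6.3% of all genes), Mbp (-0.6, voom adjusted p 0.0313) and Pdgfra (0.48, voom adjusted p 0.0314) among them. The count of 19 lower members became 11 without SNL 2 (6.1% of all genes), 10 without CBD 2 (3.49%) and 6 without the 3 libraries with Pmch (6.59%), where the mature median was -0.22 and 1 member was higher (4.36%). With offsets for GC content and length 12 were lower (4.05% of all genes) and 1 higher (3.76%), with a mature median of -0.36. Some marker lists of other tissue or other cells were lower in CBD as well. All 13 of thalamus and habenula (median -0.41) and all 8 of endothelium (median -0.22) were lower. In each list 1 was lower at an unadjusted p under 0.05 (7.2% of all genes). Of 8 choroid plexus markers 7 were higher (median 0.4), and of 8 hypothalamic markers tested 4 were higher and 4 lower. The part of such tissue and cells in the myelin values was not tested. For Pdgfra the log2 fold change stayed between 0.32 and 0.54 when any 1 library was left out.

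**Figure D4:**
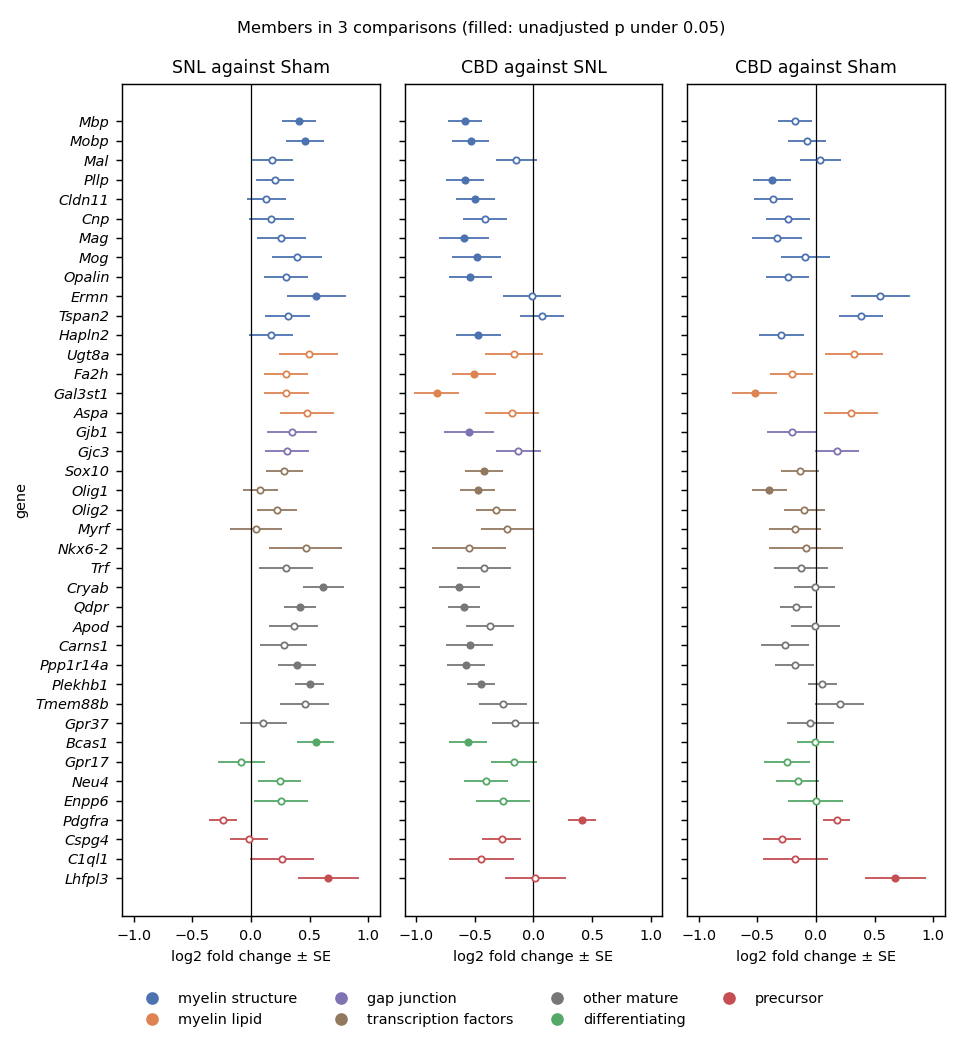
Log2 fold changes (points) with their SE (bars) for the 40 members in SNL against Sham, CBD against SNL and CBD against Sham, coloured by role, with filled points at an unadjusted p under 0.05. Of the members, 9 are filled on the higher side in the first panel, 19 on the lower side in the second, and 4 in all in the third, where the values scatter on both sides of 0.

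The comparison of CBD with Sham covers ligation and cannabidiol at once. It shares its libraries with both comparisons above, so the 3 sets of fold changes are not independent. Here the members split, and 30 of 40 were lower (49.9% of all genes) and 10 higher (50.1%), with a median of -0.13 for the mature genes and -0.08 for the other 8 (0.001 for all genes). Called after adjustment were 0 of 40 (0% of all genes), and Gal3st1 came closest at an adjusted p of 0.244. Taken unadjusted, 4 of 40 had a p under 0.05 (16.3% of all genes). Pllp, Gal3st1 and Olig1 were lower (3 of 40, against 8.87% of all genes) and Lhfpl3 was higher (1 of 40, against 7.41%). DESeq2 called 0 of 40 (3.39% of all genes with an adjusted p) and limma voom 1, Olig1 (5.85% of all genes). Groups did not overlap for Cldn11 and Olig1, lower in CBD (11.1% of all genes), and for Pdgfra, higher in CBD (10.6%). Without Sham 3 the mature median was 0.03, so its direction rested on that library. Marker lists of other tissue and other cells lay on both sides of 0 here. All 13 of thalamus and habenula were higher in CBD (median 0.59, 1 at an unadjusted p under 0.05). So were all 8 of endothelium (median 0.23, 3 at an unadjusted p under 0.05, against 7.41% of all genes). On the same side as most mature genes, 7 of 8 microglial markers were lower (median -0.23, 3 at an unadjusted p under 0.05). So were all 5 of CA1 pyramidal neurons (median -0.56, 2 at an unadjusted p under 0.05), against 8.87% of all genes lower by that measure. The part of such tissue and cells in the myelin values was not tested. Without the 3 libraries with Pmch, 7 members were lower (9.8% of all genes) and 1 higher (8.19%) at an unadjusted p under 0.05.

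The split followed the base composition of the transcripts. Of 7 members whose median coding transcript held under 45% G and C, a limit set after seeing the values, 6 were higher in CBD than in Sham, with a median log2 fold change of 0.33. Those 7 were Ermn (38% GC), Ugt8a (39.1%), Lhfpl3 (39.3%), Aspa (40.5%), Gjc3 (43.3%), Enpp6 (43.5%) and Tspan2 (44%). Of the other 33 members 4 were higher, with a median of -0.18. Spearman's rho between GC content and the log2 fold change was -0.69 over the 40 members and -0.56 over all genes with a reference transcript, a description of genes measured in the same 6 libraries. The trend was not limited to this comparison. In CBD against SNL rho was -0.51 over the members and -0.44 over all genes, with medians of -0.13 for the 7 and -0.48 for the 33. In SNL against Sham it was -0.36 over the members and -0.14 over all genes. Offsets were fitted to remove the trends with GC content and length from each library. They were fitted over the tested genes, members among them, so a rho near 0 afterwards is no test. The part of base composition in the split was not tested. With the offsets, rho over the members in CBD against Sham was -0.03, and 18 of 40 members were higher. The medians were 0.07 for the 7 and -0.05 for the 33. At an unadjusted p under 0.05 there were then 0 members higher (3.39% of all genes) and 0 lower (3.64%). The same offsets left SNL against Sham much as it was, with 39 of 40 members higher, a median of 0.34, and 9 higher (6.33% of all genes) and 0 lower (7.33%) at an unadjusted p under 0.05. They left CBD against SNL with 38 of 40 members lower and a median of -0.34. Ermn then stood at 0.26 (SE 0.22) in CBD against Sham and at -0.24 (SE 0.22) in CBD against SNL.

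**Figure D5:**
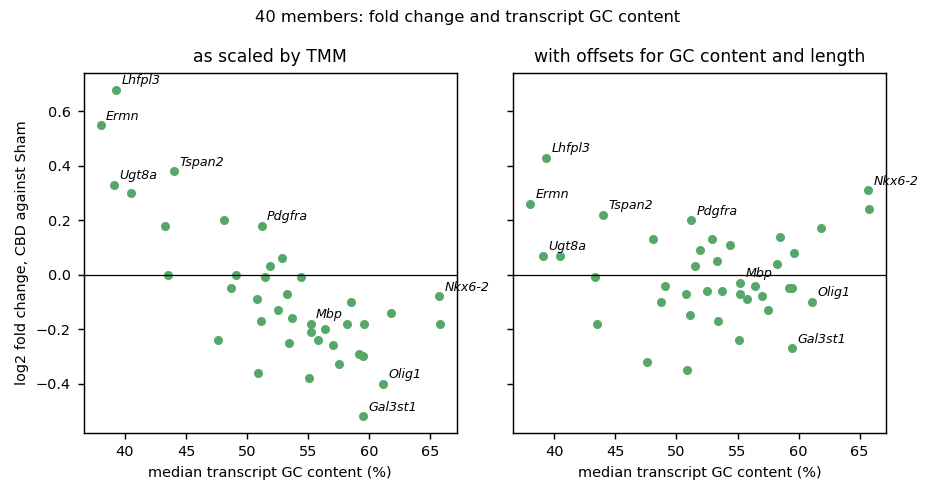
Each point is a member, with the GC content of its median coding transcript on the horizontal axis and its log2 fold change in CBD against Sham on the vertical axis, as scaled by TMM on the left and with offsets for GC content and length on the right. The slope on the left (Spearman's rho -0.69) is absent on the right (-0.03), where the points lie around 0. The offsets were fitted to remove this trend over the tested genes, so its absence is no test.

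Other genes of the lineage were read from lists of genes outside the 40. Of 28 further genes of mature oligodendrocytes, all 28 were higher in SNL than in Sham by fold change (median 0.25, against 51.6% of all genes higher), with 4 at an unadjusted p under 0.05 (5.83% of all genes) and 0 after adjustment. The smallest p-values were those of Ndrg1, a stress-responsive gene of myelinating cells (0.38, SE 0.12, adjusted p 0.261), and Evi2a (0.47, SE 0.15, adjusted p 0.261). In CBD against SNL 23 of the 28 were lower (median -0.30, against 50.1% of all genes lower), 11 at an unadjusted p under 0.05 (7.2% of all genes), led by Ninj2, an adhesion protein (-1.06, SE 0.28, adjusted p 0.306), and Elovl1, which lengthens fatty acids (-0.51, SE 0.15, adjusted p 0.306). The 5 higher ones were led by Enpp2, at 0.52 (SE 0.54), which is also a product of the choroid plexus, and Elovl7, at 0.09 (SE 0.25). In CBD against Sham 13 of the 28 were higher and 15 lower (median -0.01), with Elovl7 at 0.58 (SE 0.26), Ndrg1 at 0.20 (SE 0.12), Ninj2 at -1.01 (SE 0.28) and the creatine synthesis gene Gamt at -0.57 (SE 0.24), adjusted p 0.213 to 0.448.

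Of 18 further genes of precursors and differentiating cells 6 were higher and 12 lower in SNL than in Sham (median -0.08), with 1 higher (5.83% of all genes) and 4 lower (7.96%) at an unadjusted p under 0.05. Nkx2-2, a homeobox factor of the lineage, averaged 4.39 CPM in Sham, 8.59 in SNL and 5.56 in CBD, for a log2 fold change of 0.97 (SE 0.22, adjusted p 0.21) in SNL against Sham and -0.63 (SE 0.22, adjusted p 0.312) in CBD against SNL. Mycl, a Myc family gene, averaged 29.8, 17.2 and 19.1 CPM in the same order (-0.79, SE 0.18, adjusted p 0.21 in SNL against Sham). Cacng4, a channel subunit, had 0.48 (SE 0.25) and Rras2, a Ras relative, -0.53 (SE 0.18). In CBD against SNL 10 of the 18 were higher and 8 lower (median 0.06), with 4 higher (6.5% of all genes) and 2 lower (7.2%) at an unadjusted p under 0.05. Ptprz1, a receptor phosphatase of precursors and astrocytes, averaged 214, 205.4 and 281 CPM in Sham, SNL and CBD (0.45, SE 0.11, adjusted p 0.306 in CBD against SNL). Sox5, a factor that holds back differentiation, had 0.36 (SE 0.11), and Matn4, a matrix protein, -0.56 (SE 0.20), at adjusted p of 0.306 and 0.313. In CBD against Sham the median was -0.02, with Ptprz1 at 0.39 (SE 0.11), Sox6 at 0.33 (SE 0.18), Mycl at -0.64 (SE 0.18) and Rras2 at -0.41 (SE 0.18).

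Signals to the lineage and cholesterol synthesis, which supplies the main lipid of myelin, made up 2 further lists. Of 14 signalling genes 9 were higher in SNL than in Sham (median 0.12), with 1 higher and 1 lower at an unadjusted p under 0.05, close to the 5.83% and 7.96% of all genes. Those were Igf1, a growth factor that favours myelination (0.65, SE 0.22, adjusted p 0.262), and Lingo1, a neuronal inhibitor of differentiation (-0.56, SE 0.20, adjusted p 0.276), while Hes5, a target of Notch, had 0.54 (SE 0.30) and Fgf2, a growth factor, -0.13 (SE 0.17). In CBD against SNL 3 were higher and 11 lower (median -0.08), with Pdgfa, the ligand of Pdgfra, at 30.1 CPM in SNL and 22.5 in CBD (-0.42, SE 0.13, adjusted p 0.306), so ligand and receptor lay on opposite sides of 0. Hes5 had -0.58 (SE 0.31), Fgf2 0.33 (SE 0.16) and Id4 0.06 (SE 0.13). In CBD against Sham 2 passed an unadjusted p of 0.05, Lingo1 (-0.66, SE 0.20) and Pdgfa (-0.37, SE 0.13), both lower (8.87% of all genes), and the highest-ranked on the other side were Igf1 (0.45, SE 0.22) and Id2 (0.15, SE 0.11). Of 14 cholesterol synthesis genes 11 were higher in SNL than in Sham (median 0.13), 8 were higher in CBD than in SNL (median 0.01) and 11 were higher in CBD than in Sham (median 0.15). In the first, Insig1, a sterol sensor, had 0.37 (SE 0.16, adjusted p 0.353), and in the last Idi1, an isomerase, had 0.43 (SE 0.16, adjusted p 0.251). These were the only genes of the 14 at an unadjusted p under 0.05 in those comparisons, 1 of 14 each against 5.83% and 7.41% of all genes, and 0 were in CBD against SNL. Idi1 had 0.28 in SNL against Sham and 0.14 in CBD against SNL. Dhcr7, a late enzyme of the pathway, had -0.18 in CBD against SNL and -0.19 in CBD against Sham, and Cyp51, a sterol demethylase, had 0.26 in CBD against Sham.

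Cells other than oligodendrocytes were read from their own markers in the same libraries. Summed over 8 markers of endothelium the level was 237 to 268 CPM in Sham, 320.1 to 441 in SNL and 309 to 335 in CBD, again highest in SNL 2, and 6 of the 8 were higher in SNL than in Sham at an unadjusted p under 0.05 (5.83% of all genes). The first of them, Cldn5, stood at 23.4 to 34.2 CPM in Sham, 41.5 to 54.5 in SNL and 25.3 to 31.1 in CBD. What endothelium has to do with the myelin values was not tested. Astrocyte markers (8 genes) summed to 4623 to 5217 CPM in Sham, 4054 to 4534 in SNL and 4435 to 5236 in CBD, with Gfap at 302 to 455 over the 9 libraries. Microglial markers (8 genes) summed to 359 to 443, 336 to 423 and 312 to 367 CPM in that order, with Cx3cr1 at 40.5 to 56.3 over the 9. Markers of CA1 pyramidal neurons (5 genes) summed to 658 to 1071, 423 to 687 and 417 to 787 CPM, those of dentate granule cells (6 genes) to 395 to 604, 319.7 to 397 and 333 to 518 CPM, and those of choroid plexus (8 genes) to 140 to 1318, 265 to 2216 and 1148 to 1891 CPM. Wfs1 of CA1 lay between 52.1 and 139.5 CPM, Prox1 of the dentate between 56 and 139, Ttr of the choroid plexus between 104 and 2018, Tcf7l2 of the thalamus between 30.5 and 159, and Col1a1 of vessel fibroblasts between 7.99 and 22.6. The 9 hypothalamic markers summed to 487 CPM for CBD 1, to 387 for SNL 1 and to 147 for SNL 2, while the other 6 libraries held 56.6 to 134. Sham 3, the Sham library with the most myelin RNA, had the least of the CA1 and dentate markers in its group. In CBD the order was the same, with CBD 1 highest for the mature sum and lowest for both neuronal sums. In SNL, SNL 2 was highest for myelin, while its CA1 sum of 463 CPM lay between SNL 1 at 423 and SNL 3 at 687, and its dentate sum of 397 was the highest of its group.

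Promoters are shown for 4 members that differed in behaviour: Mobp, with CBD below SNL without overlap; Cnp, with overlap throughout; Ermn, poor in GC and not lower in CBD; and Pdgfra, opposite to myelin. RefSeq promoters (build GRCm38.p6, older than the GRCm39 of the counts) were at hand for 29 of the 40 members by symbol. The 250 bases before the annotated start are given 5′ to 3′ on the strand of the gene. They lie at chr9:120149492-120149741 (plus strand) for Mobp, chr11:100574689-100574938 (plus strand) for Cnp, chr2:58052865-58053114 (minus strand) for Ermn and chr5:75152001-75152250 (plus strand) for Pdgfra. Capitals mark matches, on either strand, to CTGGCAC (a form of the MYRF motif), ACAAAG and ACAATG (SOX motifs), and CAGCTG and CAGATG (E-boxes).
Mobp: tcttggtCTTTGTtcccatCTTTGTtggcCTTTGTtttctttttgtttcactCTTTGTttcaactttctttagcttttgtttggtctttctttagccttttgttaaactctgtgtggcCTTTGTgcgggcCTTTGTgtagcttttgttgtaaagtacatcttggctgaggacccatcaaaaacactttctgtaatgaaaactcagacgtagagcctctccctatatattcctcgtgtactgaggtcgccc
Cnp: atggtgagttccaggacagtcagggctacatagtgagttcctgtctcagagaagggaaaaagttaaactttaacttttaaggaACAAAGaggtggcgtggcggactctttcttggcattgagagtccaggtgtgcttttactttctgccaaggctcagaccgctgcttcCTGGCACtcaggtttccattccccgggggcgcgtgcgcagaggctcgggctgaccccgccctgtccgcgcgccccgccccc
Ermn: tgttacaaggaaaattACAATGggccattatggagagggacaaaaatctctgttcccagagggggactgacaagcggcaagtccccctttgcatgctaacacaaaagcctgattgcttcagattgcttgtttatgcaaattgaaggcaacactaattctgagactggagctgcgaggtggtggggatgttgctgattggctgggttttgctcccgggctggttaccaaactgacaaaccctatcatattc
Pdgfra: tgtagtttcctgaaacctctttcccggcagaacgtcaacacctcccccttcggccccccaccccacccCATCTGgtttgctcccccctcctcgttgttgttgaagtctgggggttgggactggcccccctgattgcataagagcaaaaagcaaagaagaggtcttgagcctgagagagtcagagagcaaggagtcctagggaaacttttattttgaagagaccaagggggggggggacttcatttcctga

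The Mobp window held 6 matches, all of them ACAAAG on the opposite strand (CTTTGT) in a run of similar repeats. The Cnp window held 1 match to ACAAAG and 1 to CTGGCAC, the Ermn window 1 to ACAATG and the Pdgfra window 1 to CAGATG. Some genes have more than 1 start, so the 29 genes gave 38 windows, several of which overlap. CTGGCAC was in 10.5% of these (4 of 38, from Cnp, Hapln2 and a pair of overlapping Mag windows) and in 4.19% of all 32851 windows in the table. ACAAAG was in 26.3% against 16.5%, ACAATG in 21.1% against 10.7%, CAGATG in 28.9% against 14.4% and CAGCTG in 7.89% against 13%. A match is a run of letters and was not shown to be bound, and the search says nothing of the factors where no match was found.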

How the data were processed

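Hippocampal RNA was measured in 9 libraries, 3 each labelled Sham, SNL and CBD. Per the labels' protocols, RNA was taken with TRIzol and 1.3 ug went into a SMARTER mRNA-seq kit. The deposited file holds expected counts per gene; the submitters' processing notes list RSEM and GRCm39, while aligner, annotation, filters and versions are not given here. Between 24.7% and 32.1% of values above 0 in a library were not whole, and all were rounded before testing. Libraries were mapped by column name. Genes kept by edgeR's filterByExpr (17967 of 57010) were scaled by TMM and tested with glmQLFit and glmQLFTest (edgeR 4.0.16, R 4.3.3), 1 factor for 3 groups over 9 libraries, 6 residual degrees of freedom, with Benjamini-Hochberg adjustment over all 17967 and a threshold of 0.05. Each SE was taken as the size of the log2 fold change over the root of its F value. CPM is per TMM-adjusted library size. Alternatives used DESeq2 1.42.0, limma 3.58.1 voom, other filters, other samples, a replicate block, and offsets for GC content and length from mgcv 1.9.3 smooths on GENCODE M21 transcripts (GRCm38, median coding transcript, 98.2% of genes matched). The edgeR, DESeq2 and voom fits were tested on simulated data. The members and lists were chosen with earlier results of these data known. Genes described were 24 members fixed by role, the 3 members with the smallest p in each direction of each comparison, and up to 2 genes per direction from each pathway list, of which some are not reported here. Qdpr, Plekhb1 and Cryab are among those chosen by p or after their values were seen, and so are the 4 promoters and the ratios of sums.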

Additional observations from a re-analysis of the deposited data

How the results depend on the processing

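Every member had counts in every library, the lowest value being 3.48 CPM, and each group held 3 libraries. Adjusted calls among the members were 0 in all 3 comparisons under DESeq2 size factors, both other filters, fits on 6 libraries, the replicate block, the offsets, the fit without the 3 libraries with Pmch and each library left out. They were 3 in SNL against Sham and 5 in CBD against SNL by DESeq2, and 13 in CBD against SNL and 1 in CBD against Sham by limma voom. Over all genes, DESeq2 called 365, 157 and 384 in SNL against Sham, CBD against SNL and CBD against Sham, voom 1, 1132 and 1051, the fit with no filter 253, 1 and 56, and the fit without the 3 libraries with Pmch 1, 2 and 20. The fit on only 6 libraries called 1 in CBD against Sham. Leaving out each library gave 0 to 8, 0 to 2 and 0 to 17 calls. The cause of these differences was not tested. The fit with the replicate number as a block had mature medians of 0.31, -0.47 and -0.15, 0 calls over all genes and 8, 18 and 3 members at an unadjusted p under 0.05, and it changed no call. Same-numbered libraries had correlations of -0.266 to 0.191 over 9 pairs of deviations from the group means, and the numbers were not taken to pair the samples.

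Medians of the mature genes ran from 0.17 to 0.49 in SNL against Sham, -0.59 to -0.32 in CBD against SNL and -0.22 to 0.03 in CBD against Sham with each library left out, and those of the other 8 genes from 0.03 to 0.37, -0.39 to -0.06 and -0.16 to 0.05. Without the 3 libraries with Pmch the mature medians were 0.01 and -0.22 in the first 2 comparisons, and the median of the other 8 was -0.15 in SNL against Sham. Members higher in SNL than Sham at an unadjusted p under 0.05 were 14 with no filter and 5 to 21 with each library left out. Lower ones were 1 by voom and 0 to 1 with each library left out. Over all genes, in either direction, 3208 had such a p with no filter, 3405 by voom and 1469 to 3516 with each library left out. Members lower in CBD than SNL were 12 with the offsets (4.05% of all genes), 25 with no filter, 27 by voom and 10 to 25 with each left out. Over all genes, in either direction, there were 1403 with the offsets, 2945 with no filter, 4990 by voom and 1140 to 3677 with each left out. In CBD against Sham, higher members were 3 with no filter, 2 by DESeq2, voom and the 6-library fit, 0 with the offsets and 0 to 6 with each left out. Lower members were 7 by voom, 0 with the offsets and 0 to 5 with each left out. Over all genes, in either direction, there were 3507 with no filter, 2905 by DESeq2, 5071 by voom and 2653 in the 6-library fit. The offsets gave 1263, and leaving out each library 1703 to 3826. Member counts in this paragraph are for a single direction, and the number of genes tested differed between fits. The counts over all genes are therefore not matching shares for them.

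Single genes turned direction under some settings. In SNL against Sham without the 3 libraries, log2 fold changes were -0.22 for Cldn11, -0.17 for Cnp, -0.24 for Enpp6, -0.10 for Gjc3, -0.15 for Mag, -0.45 for Myrf, -0.16 for Olig1, -0.08 for Olig2, -0.09 for Opalin and -0.11 for Trf. With the offsets they were 0.17 for Cspg4 and 0.03 for Gpr17. In CBD against SNL without the 3 libraries they were 0.16 for Aspa, 0.32 for Enpp6, 0.52 for Ermn, 0.27 for Gjc3, 0.16 for Myrf and 0.23 for Ugt8a, by voom -0.10 for Lhfpl3 and -0.01 for Tspan2, and with the offsets -0.16 for Lhfpl3. In CBD against Sham with the offsets they were 0.03 for Bcas1, 0.24 for C1ql1, 0.11 for Cryab, -0.01 for Gjc3, 0.05 for Mobp, 0.04 for Myrf, 0.14 for Olig2 and 0.17 for Sox10, and for Bcas1 0.01 without the 3 libraries. With each library left out, ranges that crossed 0 in SNL against Sham were -0.03 to 0.28 for Cldn11, -0.21 to 0.12 for Cspg4, -0.24 to 0.03 for Gpr17, -0.23 to 0.24 for Myrf and -0.08 to 0.19 for Olig1. In CBD against SNL they were -0.21 to 0.14 for Ermn, -0.17 to 0.14 for Lhfpl3, -0.42 to 0.05 for Myrf, -0.07 to 0.16 for Tspan2 and -0.36 to 0.02 for Ugt8a. In CBD against Sham they were -0.09 to 0.14 for Bcas1, -0.48 to 0.06 for C1ql1, -0.20 to 0.10 for Cryab, -0.36 to 0.08 for Gjb1, -0.19 to 0.07 for Mobp, -0.26 to 0.15 for Mog, -0.16 to 0.14 for Apod, -0.15 to 0.21 for Enpp6 and -0.29 to 0.11 for Trf.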
